A study of Mus musculus with 9 samples.

Results

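Muscle actins and the proteins that cap, bind and anchor them form the contractile framework of a cardiomyocyte, and 10 of their genes were followed here by symbol: the actins *Acta1*, *Acta2* and *Actc1*, the filament-binding genes *Tpm1*, *Tagln* and *Cnn1*, the Z-disc and scaffold genes *Actn2*, *Csrp3* and *Ttn*, and the intermediate filament gene *Des*. Values were at hand for 9 of the 10 among 15144 gene symbols, and *Ttn* was not analysed here. All 9 had a group mean far above the minimum of 10 that was asked of a gene in either group, so none was lost to a filter on low values.

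Actin filaments are the thin filaments of the sarcomere, the repeating unit of striated muscle. They slide past myosin, are regulated along their length by tropomyosin and troponin, and are cross-linked by α-actinin at the Z-disc, where titin and signalling proteins such as muscle LIM protein also attach and around which desmin ties neighbouring myofibrils together. The developing heart uses cardiac actin together with the skeletal and smooth muscle actin genes, and several of these genes are known targets of the serum response factor (SRF) and its actin-sensing partners, the myocardin-related transcription factors (MRTFs).

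The cells were neonatal rat ventricular myocytes (NRVMs), which are beating heart muscle cells taken from Sprague-Dawley rats 1 or 2 days after birth and kept in DMEM/199 medium with 3% fetal bovine serum. The organism field of the sample labels names the mouse, but the description of the cells and the stated alignment to the rat genome give the rat. After 48 h in culture the cells received an adenovirus at 50 infectious units per cell (the multiplicity of infection), and RNA was collected 48 h later. All viruses drove their insert from a CMV promoter, which is not restricted to 1 cell type, next to a red fluorescent protein. The 3 groups of 3 libraries were LacZ, a bacterial enzyme that serves as the control, mouse Nrf1 (the product of *Nfe2l1*), and mouse Nrf2 (the product of *Nfe2l2*), and they were sequenced to ask which genes these related stress-response transcription factors switch on in cardiomyocytes.

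The deposited tables give group means only, so the reads of each library were solved from those means: every group stands in 2 tables that were scaled differently, and 1 set of whole read numbers per library met both means for 14678 of 14679 genes in LacZ and for all genes in Nrf1 and Nrf2. Solved reads came to between 7874370 and 11905027 per library. The libraries are numbered by depth, since they could not be matched to the replicate numbers of the labels. Levels are given in RPM, the reads of a gene per 1000000 reads of the 14442 genes solved in all 9 libraries. Differences are given as the log2 ratio of the authors' group means, with the standard error (SE) and adjusted p of limma, fitted to the log2 library values of all genes. A gene was called at a ratio above 1.5-fold, and "rose" and "fell" are used where the adjusted p of limma was under 0.05. The labels do not say whether the libraries of a group came from separate cultures or animals, so p-values measure only the spread between these libraries. The Nrf2 label was checked through *Nfe2l2*, whose group mean was 3475 in LacZ and 75066 in Nrf2, while *Nfe2l1* was not analysed here and the Nrf1 label was not checked.

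Nrf1 cells held more transcript of all 3 muscle actins, of *Tagln* and above all of *Des* than LacZ cells, whereas *Tpm1*, *Csrp3*, *Cnn1* and *Actn2* stayed within 1.14-fold of the control. Nrf2 cells shared the rise of *Acta1*, had smaller increases of *Acta2*, *Actc1*, *Tagln* and *Des*, and had a 1.77-fold rise of *Cnn1*, which also lay 1.63-fold above its level in Nrf1 cells. Together the 9 genes took 1.66% ± 0.118 (SD, n = 3) of all solved reads in LacZ, 2.43% ± 0.00785 in Nrf1 and 2.10% ± 0.0157 in Nrf2, and the libraries of the 3 groups did not overlap. An exact two-sided permutation test of 3 libraries against 3 gave p = 0.1 for each pair of groups, the smallest p this design allows. In bulk RNA, fewer cells of a type and less RNA per cell cannot be told apart, and this holds for every level below.

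**Figure D1:**
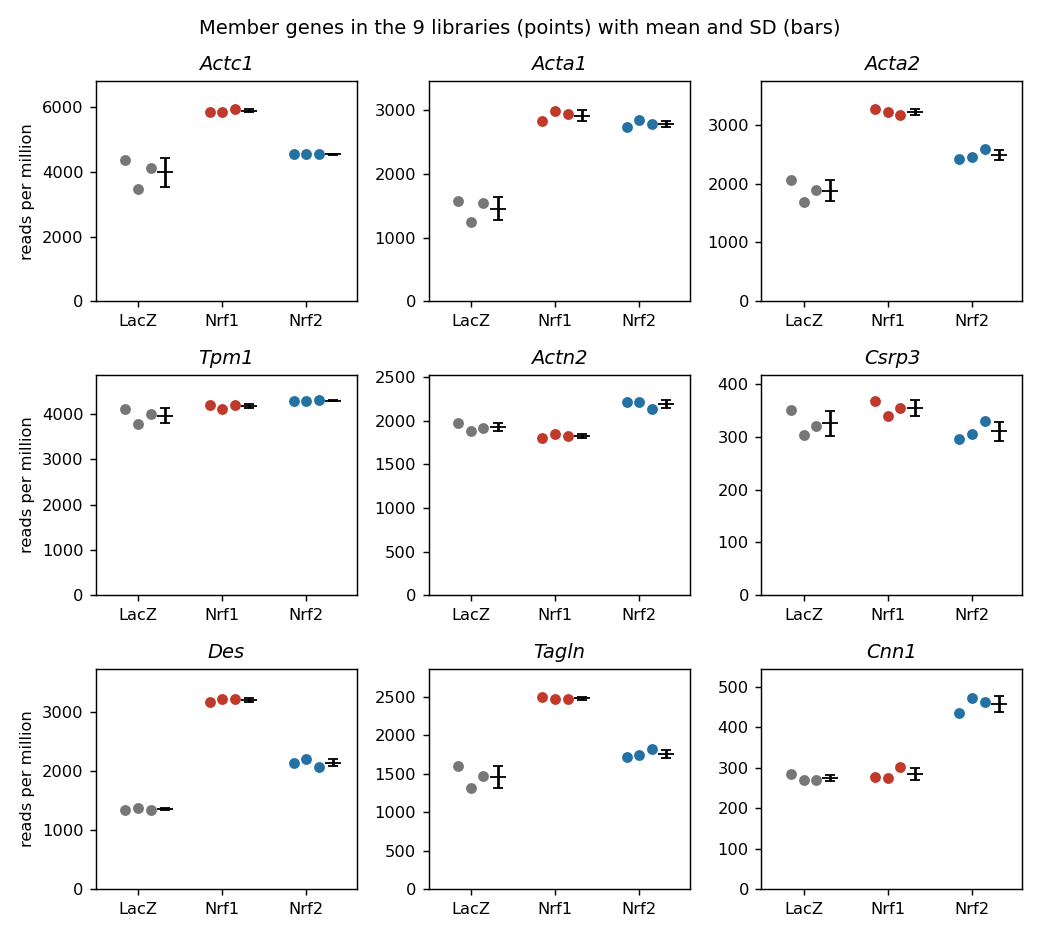
Each panel plots 1 gene in RPM (y axis from 0) against the 3 groups; coloured points are the 3 libraries of a group and the black bar is their mean with SD. Des is highest in the Nrf1 libraries (3168 to 3235), Acta1 lies between 2742 and 2986 in Nrf1 and Nrf2 and at 1580 or less in LacZ, and Cnn1 stands out only in Nrf2 (436 to 473 against 270 to 284 in LacZ).

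*Acta1* encodes skeletal α-actin, a thin-filament actin that the fetal and the stressed heart express. The LacZ libraries held 1580, 1246 and 1536 RPM of it. The Nrf1 libraries held 2823, 2986 and 2935 RPM. The Nrf2 libraries held 2742, 2838 and 2776 RPM. Every Nrf1 and Nrf2 library was above every LacZ library. The log2 ratio of the group means was 1.07 for Nrf1 over LacZ (SE 0.0673, adjusted p = 1.36e-09 by limma), a 2.09-fold rise. For Nrf2 over LacZ it was 1.02 (SE 0.0682, adjusted p = 1.53e-08 by limma), a 2.03-fold rise. Only 3.65% of genes had a ratio as high as this in Nrf1 and 4.51% in Nrf2. Between the factors the ratio was -0.05 (SE 0.0204, adjusted p = 0.0399 by limma), the libraries overlapped, and the adjusted p stayed under 0.05 in 2 of 6 fits that each left out 1 library and reached 0.225 without Nrf1 library 2.

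*Acta2* encodes smooth muscle α-actin, which the embryonic heart uses transiently. The authors found it still enriched in a part of mouse cardiomyocytes just after birth. Smooth muscle cells and activated fibroblasts also express *Acta2*. It was at 2052, 1691 and 1888 RPM in LacZ. It was at 3258, 3216 and 3160 RPM in Nrf1. It was at 2422, 2442 and 2587 RPM in Nrf2. The 3 groups separated without overlap, in the order LacZ, Nrf2, Nrf1. The log2 ratio was 0.84 for Nrf1 over LacZ (SE 0.0539, adjusted p = 1.74e-09 by limma) and 0.49 for Nrf2 over LacZ (SE 0.0573, adjusted p = 5.14e-06 by limma). Set directly against each other, Nrf2 cells were lower than Nrf1 cells by a log2 ratio of -0.36 (SE 0.0219, adjusted p = 1.68e-10 by limma).

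*Actc1* encodes cardiac α-actin, the main actin of the adult heart muscle. The LacZ libraries gave 4362, 3479 and 4112 RPM, a wide spread. The Nrf1 libraries gave 5864, 5862 and 5957 RPM. The Nrf2 libraries gave 4551, 4539 and 4564 RPM, just above the highest LacZ library. The log2 ratio of 0.63 for Nrf1 over LacZ (SE 0.061, adjusted p = 2.10e-07 by limma) was a 1.54-fold rise, so the gene sat close to the 1.5-fold limit. For Nrf2 over LacZ the ratio was 0.28 (SE 0.0628, adjusted p = 0.00151 by limma). Nrf2 cells were below Nrf1 cells by a log2 ratio of -0.36 (SE 0.0135, adjusted p = 1.84e-13 by limma).

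The coding sequences of these actin genes are similar, so reads that fit more than 1 of them could be split or dropped when they were counted. How that was handled is not given in the sources used here. With that limit, the make-up of the actin reads was compared inside each library, where no scaling enters. Reads are not corrected for gene length, so the shares are set against each other between groups and not between genes. *Acta1* took 19.9% ± 0.491 (SD, n = 3) of the reads of the 3 genes in LacZ, 24.2% ± 0.569 in Nrf1 and 28.4% ± 0.486 in Nrf2. The share of *Actc1* went the other way, at 54.4% ± 0.198 in LacZ, 49.0% ± 0.422 in Nrf1 and 46.4% ± 0.449 in Nrf2. For both genes the 3 groups did not overlap in any pair. The share of *Acta2* was 25.7% ± 0.659, 26.7% ± 0.532 and 25.3% ± 0.67, and its libraries overlapped between LacZ and either factor. There was thus 0.365 ± 0.00801 of an *Acta1* read for each *Actc1* read in LacZ, 0.494 ± 0.0141 in Nrf1 and 0.612 ± 0.0119 in Nrf2. The exact two-sided permutation p was 0.1, the smallest possible, for each pair of groups in the shares of *Acta1* and *Actc1*.

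**Figure D2:**
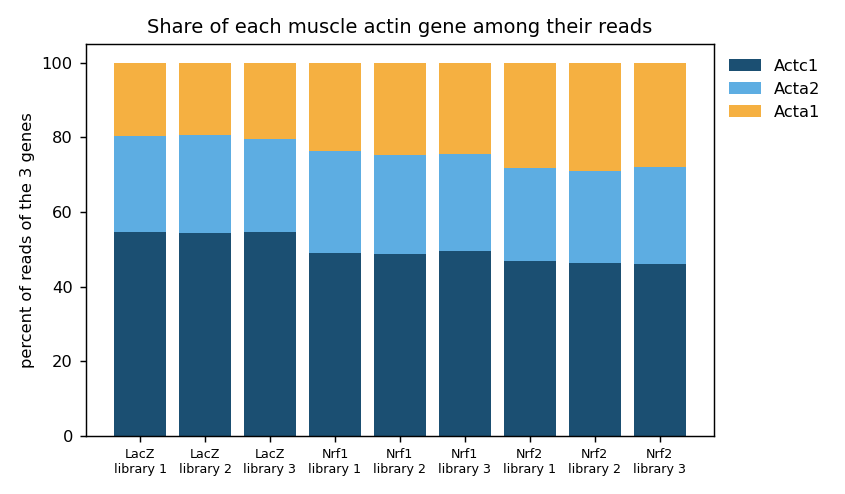
Stacked bars show, for each of the 9 libraries (x axis), the percent of the reads of Actc1, Acta2 and Acta1 taken by each gene (y axis, 0 to 100). The Acta1 band widens from 19.4 to 20.4% in LacZ to 23.6 to 24.8% in Nrf1 and 28.0 to 28.9% in Nrf2, while the Actc1 band narrows.

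Of the genes whose products lie along the actin filament, *Tpm1* encodes α-tropomyosin, the rod that blocks or exposes myosin binding sites. It lay at 4104, 3777 and 4006 RPM in LacZ. It lay at 4210, 4121 and 4192 RPM in Nrf1. It lay at 4280, 4292 and 4317 RPM in Nrf2. These are small differences in an even gene. The log2 ratio to LacZ was 0.14 in Nrf1 (SE 0.0358, adjusted p = 0.00286 by limma) and 0.20 in Nrf2 (SE 0.0369, adjusted p = 3.12e-04 by limma). Nrf2 over Nrf1 came to 0.06 (SE 0.0142, adjusted p = 0.00264 by limma). As a share of reads the ratios to LacZ were smaller, at 0.08 in Nrf1 (adjusted p = 0.0353 by limma) and 0.12 in Nrf2 (adjusted p = 0.00624 by limma).

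*Tagln* (transgelin, or SM22α) encodes an actin-binding protein of smooth muscle that early cardiomyocytes also express. The libraries held 1595, 1309 and 1471 RPM in LacZ. They held 2502, 2470 and 2474 RPM in Nrf1. They held 1719, 1750 and 1819 RPM in Nrf2. As for *Acta2*, the order was LacZ, Nrf2, Nrf1 with no overlap. The log2 ratio was 0.83 for Nrf1 over LacZ (SE 0.0546, adjusted p = 2.24e-09 by limma) and 0.36 for Nrf2 over LacZ (SE 0.0575, adjusted p = 9.57e-05 by limma). Nrf2 over Nrf1 gave -0.48 (SE 0.0202, adjusted p = 8.18e-13 by limma).

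*Cnn1* encodes calponin, which binds actin and slows its sliding over myosin in smooth muscle. Its LacZ libraries had 284, 271 and 270 RPM. Its Nrf1 libraries had 278, 274 and 302 RPM, within and just above the LacZ range. Its Nrf2 libraries had 436, 473 and 464 RPM, all far above both other groups. The log2 ratio for Nrf2 was 0.82 over LacZ (SE 0.0411, adjusted p = 7.72e-10 by limma) and 0.70 over Nrf1 (SE 0.0366, adjusted p = 1.73e-11 by limma). For Nrf1 over LacZ it was 0.11 (SE 0.0433, adjusted p = 0.0347 by limma), and this passed in 3 of 6 fits that left out 1 library, with an adjusted p of up to 0.213 without Nrf1 library 3.

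The smooth muscle genes were also compared with each other inside each library. For each *Tagln* read there was 0.190 ± 0.0152 (SD, n = 3) of a *Cnn1* read in LacZ, 0.115 ± 0.00635 in Nrf1 and 0.260 ± 0.00926 in Nrf2, and no 2 groups overlapped. *Acta2* and *Tagln*, in contrast, kept nearly the same ratio of reads in LacZ (1.29 ± 0.00456) and Nrf1 (1.29 ± 0.0144), with a higher one in Nrf2 (1.41 ± 0.0131). The exact two-sided permutation p for the *Cnn1* to *Tagln* ratio was 0.1 in each pair, the smallest possible, and for the *Acta2* to *Tagln* ratio it was 0.5 between LacZ and Nrf1 and 0.1 between Nrf2 and either other group.

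*Actn2*, which encodes the α-actinin that cross-links thin filaments at the Z-disc, was higher in Nrf2 cells than in both other groups. It stood at 1976, 1882 and 1918 RPM in LacZ. It stood at 1801, 1853 and 1830 RPM in Nrf1. It stood at 2212, 2221 and 2140 RPM in Nrf2. The Nrf2 libraries were above all others, and the log2 ratio was 0.27 over LacZ (SE 0.0335, adjusted p = 9.12e-06 by limma) and 0.28 over Nrf1 (SE 0.0186, adjusted p = 6.64e-10 by limma). For Nrf1 over LacZ the ratio depended on the scaling. On the authors' scale it was -0.01, with a 95% interval from -0.08 to 0.06 (adjusted p = 0.784 by limma), and the libraries overlapped. As a share of each library's reads it was -0.07 (SE 0.0279, adjusted p = 0.0277 by limma), and all 3 Nrf1 libraries were below all LacZ libraries.

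*Csrp3* encodes muscle LIM protein, a Z-disc protein linked to the sensing of stretch. It was at 352, 304 and 321 RPM in LacZ. It was at 369, 340 and 355 RPM in Nrf1. It was at 296, 306 and 331 RPM in Nrf2. Its log2 ratio for Nrf1 over LacZ was 0.19 (SE 0.0514, adjusted p = 0.00439 by limma). That for Nrf2 over LacZ was 0.02, with a 95% interval from -0.10 to 0.14 (adjusted p = 0.788 by limma), and as a share of reads it turned to -0.07 (adjusted p = 0.307 by limma). Nrf2 cells were lower than Nrf1 cells, at -0.18 (SE 0.0383, adjusted p = 6.77e-04 by limma).

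*Des* encodes desmin, the muscle intermediate filament that links Z-discs to each other and to the cell surface. Its LacZ libraries agreed closely, at 1345, 1374 and 1344 RPM. The Nrf1 libraries stood at 3168, 3235 and 3226 RPM. The Nrf2 libraries stood at 2144, 2208 and 2080 RPM, between the other groups and apart from both. The log2 ratio of 1.31 for Nrf1 over LacZ (SE 0.0289, adjusted p = 1.44e-14 by limma) was a 2.48-fold rise, which 2.08% of genes reached. For Nrf2 over LacZ the ratio was 0.75 (SE 0.0322, adjusted p = 1.41e-10 by limma), a 1.68-fold rise. Nrf2 over Nrf1 gave -0.57 (SE 0.0196, adjusted p = 5.33e-14 by limma). Inside each library the ratio of *Des* to *Actn2* reads was 0.704 ± 0.025 (SD, n = 3) in LacZ, 1.76 ± 0.00906 in Nrf1 and 0.979 ± 0.0138 in Nrf2, with no overlap and the smallest exact two-sided permutation p, 0.1, in each pair.

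**Figure D3:**
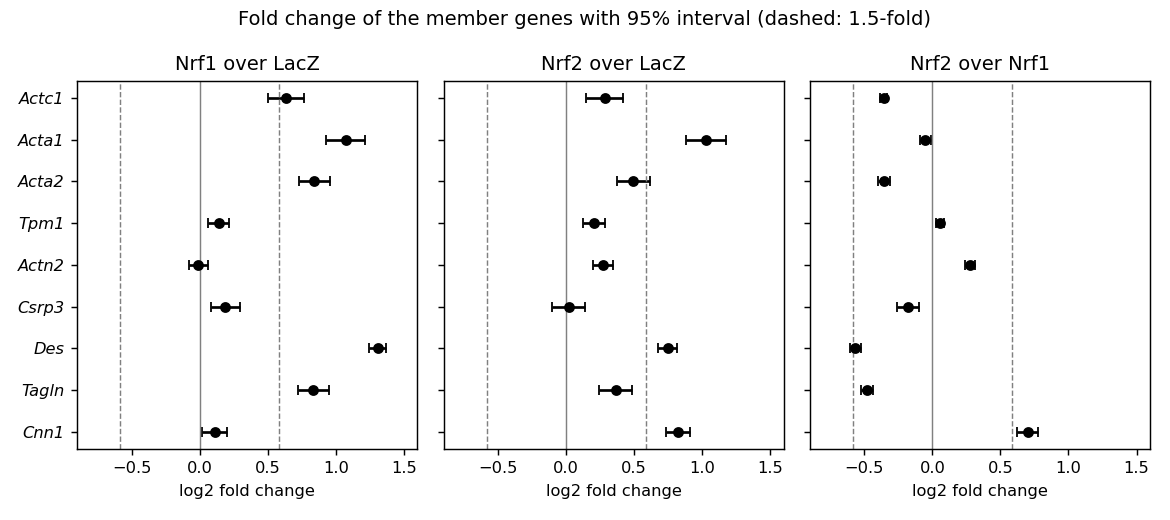
Points are the log2 fold change of each gene by limma with its 95% interval (bars), in 1 panel per comparison; the solid line is no change and the dashed lines mark 1.5-fold. Des leads in Nrf1 over LacZ, Acta1 and Cnn1 lead in Nrf2 over LacZ, and in Nrf2 over Nrf1 Cnn1 and Actn2 lie to the right while Des, Tagln, Acta2 and Actc1 lie to the left.

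Counted over the genes, 5 of 9 were past 1.5-fold higher in Nrf1 over LacZ (*Des*, *Acta1*, *Acta2*, *Tagln* and *Actc1*), where 11.9% of all genes with a mean of at least 10 were, and 0 of 9 were past it lower, where 18.1% were. All 9 genes have means above 1000, and of the genes that do, 13.6% were past 1.5-fold higher and 7.53% past it lower. By limma 8 of 9 rose (34.3% of all genes, and 51.5% of those with such means) and 0 fell (32.5% and 29.2%). On the authors' scale all Nrf1 libraries were above all LacZ libraries for 8 of 9 genes (36.2% of all genes) and below them for 0 (34.4%). In RPM, as printed above, they were above for 6, with *Cnn1* and *Csrp3* overlapping, and below for 1, *Actn2*. The share of all genes without overlap in RPM is not given, so these counts have no background beside them. As a share of reads, 7 rose and *Actn2* fell, where 29.3% and 36.9% of all genes did. In the limma fit without LacZ library 2 the number past 1.5-fold dropped from 5 to 4, as the log2 fold change of *Actc1* came to 0.53.

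In Nrf2 over LacZ, 3 of 9 were past 1.5-fold higher (*Acta1*, *Cnn1* and *Des*), against 9.78% of all genes and 8.45% of those with means of 1000 or more, and 0 were past it lower (10.9% of all genes and 4.34% of those). By limma 8 of 9 rose (28.5% of all genes, and 46.2% of those with such means) and 0 fell (26% and 26.8%). All Nrf2 libraries were above all LacZ libraries for 8 of 9 genes (31.7% of all genes) and below them for 0 (30%). As a share of reads the same counts of 8 and 0 were found, while all genes split into 21.9% that rose and 34.9% that fell. The LacZ libraries are shared with the comparison of Nrf1, which makes the values of one dependent on those of the other.

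In Nrf2 over Nrf1, which does not use the LacZ libraries, *Cnn1* alone was past 1.5-fold higher (12.3% of all genes, and 4.73% of those with means of 1000 or more) and 0 were past it lower (5.16% and 3.82%). By limma *Cnn1*, *Actn2* and *Tpm1* rose, 3 of 9 (28.8% of all genes, and 32.9% of those with such means), and *Des*, *Tagln*, *Actc1*, *Acta2*, *Csrp3* and *Acta1* fell, 6 of 9 (29.8% and 43.6%). Libraries did not overlap for 8 of these, with all Nrf2 libraries higher for 3 (31.4% of all genes) and lower for 5 (32.3%). The median log2 ratio of the 9 genes was 0.63 in Nrf1 over LacZ, 0.36 in Nrf2 over LacZ and -0.18 in Nrf2 over Nrf1, where the median over all genes was 0.0018, -0.0032 and -0.0046.

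The spread between libraries was widest in LacZ for 7 of the 9 genes, in Nrf1 for *Cnn1* and in Nrf2 for *Des*. LacZ library 2 was the lowest of its group for 7 of the 9, while 39% of all genes at 100 RPM or more were lowest there. The coefficient of variation of the actins and *Tagln* ranged from 9.63 to 12.5% in LacZ, where the median over genes at 100 RPM or more was 3.64%. In the same library the summed leukocyte markers were at 276 RPM, against 181 and 192 RPM in the other LacZ libraries. The summed cardiomyocyte markers were lowest there, at 14186 RPM against 15541 and 14736 RPM. The sums for smooth muscle and pericytes (1283 RPM), fibroblasts without *Fn1* (14096 RPM) and endothelial cells (234 RPM) were highest there. The part of these values in the results was not tested. Without LacZ library 2 only fold changes by limma are given. On the log2 scale those for Nrf1 over LacZ became 0.96 for *Acta1*, 0.76 for *Acta2* and 0.75 for *Tagln*. With all libraries they were 1.07, 0.84 and 0.84 by limma. Those for Nrf2 over LacZ became 0.92, 0.41 and 0.28, from 1.03, 0.49 and 0.36 by limma. *Actc1* in Nrf2 over LacZ went from 0.28 to 0.18 without it, the largest relative move among genes that passed the test in that comparison.

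The actins, *Tagln* and *Cnn1* are not made by cardiomyocytes alone, so marker genes of each cell type were summed in the same libraries. The 14 cardiomyocyte markers, all detected, summed to between 14186 and 15541 RPM in LacZ, 11808 and 11937 RPM in Nrf1, and 14824 and 15095 RPM in Nrf2. Troponin T (*Tnnt2*), which defines cardiomyocytes, was at 3650 ± 279 RPM (SD, n = 3) in LacZ, 3012 ± 73.1 in Nrf1 and 3990 ± 91.7 in Nrf2. The α-myosin gene *Myh6* was at 919 ± 57, 694 ± 32.9 and 1035 ± 57.4 RPM in the same order. The β-myosin gene *Myh7*, which is prominent in the fetal rodent ventricle, was at 1645 ± 102, 751 ± 17.1 and 1291 ± 5.56 RPM. All of these defining genes of cardiomyocytes were detected in each group. By limma 9 of the 14 markers fell and 2 rose in Nrf1 over LacZ, where 32.5% and 34.3% of all genes did. Those that rose were *Ryr2*, by 0.83, and *Mybpc3*, by 0.11 (adjusted p = 3.29e-11 and 0.00958 by limma). In Nrf2 over LacZ 7 markers rose and 2 fell, where 28.5% and 26% of all genes did. Of genes with means of 1000 or more, 51.5% rose and 29.2% fell in Nrf1 over LacZ. In Nrf2 over LacZ 46.2% of those rose and 26.8% fell.

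The 13 smooth muscle and pericyte markers, all detected although *Ndufa4l2* was under 1 RPM throughout, summed to between 1174 and 1283 RPM in LacZ, 662 and 687 RPM in Nrf1, and 836 and 884 RPM in Nrf2. Smooth muscle myosin (*Myh11*), the defining gene of that cell type, was at 178 ± 8.12 RPM in LacZ, 84.7 ± 0.668 in Nrf1 and 145 ± 15.1 in Nrf2. Of the 12 with a mean of at least 10, 10 fell and 0 rose by limma in Nrf1 over LacZ. Over all genes 32.5% fell and 34.3% rose. In Nrf2 over LacZ 6 of the markers fell and 2 rose, where 26% and 28.5% of all genes did. Those that rose were *Lmod1* and *Abcc9*, by 0.39 and 0.28 (adjusted p = 0.00121 and 0.0138 by limma). Of the 13 fibroblast markers 12 could be solved in all libraries, and their sum ranged from 13190 to 14096 RPM in LacZ, from 3251 to 3501 RPM in Nrf1 and from 6556 to 7101 RPM in Nrf2. The marker left out of this sum is fibronectin (*Fn1*), the gene with more than 1 solution in LacZ, whose group mean was 95891 in LacZ and 72502 in Nrf1, a log2 ratio of -0.40, and for Nrf2 over LacZ the ratio was -1.16. With *Fn1* the group means of all 13 markers summed to 214886 in LacZ and 103451 in Nrf1 in the table of that pair, and without it to 118995 and 30949. In the table of Nrf2 and LacZ they summed to 229479 in LacZ and 113615 in Nrf2, and without *Fn1* to 127079 and 67909. Between the factors the sums were 115416 in Nrf1 and 118058 in Nrf2 with *Fn1*, and 34529 and 70565 without it. The distance between these sums thus rests on leaving *Fn1* out. Gene by gene, 11 of the 13 rose and 2 fell by limma in Nrf2 over Nrf1, with *Fn1* counted. Over all genes 28.8% rose and 29.8% fell. Past 1.5-fold were 9 higher and 2 lower (12.3% and 5.16% of all genes), and the median log2 ratio was 0.77. Collagen I (*Col1a1*) was at 9827 ± 79.8, 2464 ± 108 and 5029 ± 214 RPM, and *Pdgfra*, a fibroblast receptor, was at 26.3 ± 4.35, 9.05 ± 1.48 and 18.7 ± 2.66 RPM. *Col1a1* alone was thus most of the fibroblast sum without *Fn1*, whose mean was 13563 RPM in LacZ, 3374 in Nrf1 and 6829 in Nrf2. Endothelial markers (8 of 8 found) summed to between 220 and 234 RPM in LacZ, 134 and 142 RPM in Nrf1, and 128 and 151 RPM in Nrf2. Leukocyte markers (8 of 8 found) summed to between 181 and 276 RPM, 103 and 107 RPM, and 95.8 and 105 RPM. By limma over LacZ, 12 fibroblast, 7 endothelial and 6 leukocyte markers fell in Nrf1, and 10, 6 and 6 in Nrf2. *Fn1* had no limma value there. Over all genes 32.5% fell in Nrf1 and 26% in Nrf2. Those that rose were *Csf1r* in Nrf1, by 0.43 (adjusted p = 0.00404 by limma), and *Mfap5* in Nrf2, by 1.36 (adjusted p = 1.98e-08 by limma). Over all genes 34.3% and 28.5% rose. No marker found was at 0 in all libraries, and the part of these other cell types in the values of the contractile genes was not tested.

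**Figure D4:**
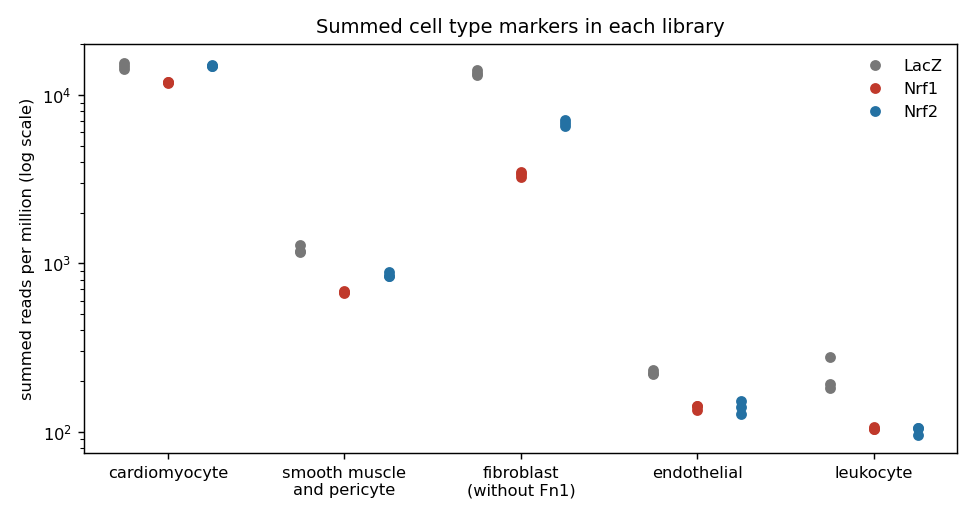
Summed RPM of 5 marker lists (log y axis) in each library, with LacZ, Nrf1 and Nrf2 as separate points. The fibroblast sum, which leaves out the abundant gene Fn1, is 13190 or more in LacZ and 3501 or less in Nrf1, and with Fn1 the gap is narrower, as given in the text; the smooth muscle and pericyte sum is lowest in Nrf1.

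Other genes of the same structures were counted from lists set up beside the 9 genes. For comparison with each list below, 34.3% of all genes rose and 32.5% fell by limma in Nrf1 over LacZ. Past 1.5-fold there were 11.9% higher and 18.1% lower. In Nrf2 over LacZ 28.5% of all genes rose and 26% fell, with 9.78% past 1.5-fold higher and 10.9% past it lower. Many of the listed genes have means of 1000 or more. Of all genes with such means, 51.5% rose and 29.2% fell in Nrf1 over LacZ (13.6% and 7.53% past 1.5-fold). In Nrf2 over LacZ 46.2% of them rose and 26.8% fell (8.45% and 4.34% past 1.5-fold). Of 15 further thin-filament genes with a mean of at least 10, 0 were past 1.5-fold higher and 4 past it lower in Nrf1 over LacZ, and by limma 3 rose and 6 fell, with a median log2 ratio of -0.04. In Nrf2 over LacZ 10 of them rose and 1 fell, with a median of 0.21. The inhibitory troponin of the heart, *Tnni3*, fell in Nrf1 cells (log2 ratio -0.97, SE 0.04, adjusted p = 1.04e-11 by limma) and was at 0.23 in Nrf2 cells (adjusted p = 1.54e-04 by limma). The slow skeletal troponin T gene *Tnnt1* fell in both, at -2.91 in Nrf1 (adjusted p = 5.92e-09 by limma) and -1.26 in Nrf2 (adjusted p = 1.30e-05 by limma). *Smyd1*, a muscle methyltransferase needed to build sarcomeres, rose in both, at 0.34 in Nrf1 (adjusted p = 2.03e-04 by limma) and 0.59 in Nrf2 (adjusted p = 1.99e-06 by limma). The nebulette gene *Nebl*, whose product binds thin filaments near the Z-disc, rose by 0.25 in Nrf1 (adjusted p = 4.81e-04 by limma) and 0.30 in Nrf2 (adjusted p = 6.02e-05 by limma).

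Of 34 further Z-disc and sarcomere scaffold genes, 17 rose and 10 fell by limma in Nrf1 over LacZ (2 and 4 past 1.5-fold), with a median of 0.11. In Nrf2 over LacZ, 16 of 33 rose and 5 fell (3 and 2 past 1.5-fold), with a median of 0.10. *Tcap*, whose product telethonin caps titin at the Z-disc, fell in both, to a log2 ratio of -2.68 in Nrf1 (SE 0.129, adjusted p = 6.56e-11 by limma) and -1.28 in Nrf2 (adjusted p = 6.93e-08 by limma). *Trim54*, a RING-finger protein of the sarcomere, rose by 1.14 in Nrf1 (adjusted p = 1.43e-10 by limma) and by 1.91 in Nrf2 (adjusted p = 1.96e-12 by limma). *Sync*, whose product syncoilin is an intermediate filament protein that partners desmin, rose by 0.58 in Nrf1 (adjusted p = 1.49e-07 by limma) and 0.32 in Nrf2 (adjusted p = 9.74e-05 by limma). The M-band gene *Myom1* fell in Nrf1 (-0.91, adjusted p = 8.87e-11 by limma) and was at 0.02 in Nrf2 (adjusted p = 0.727 by limma).

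Of 17 further smooth muscle contractile genes, 4 rose and 11 fell in Nrf1 over LacZ (2 and 8 past 1.5-fold), with a median of -0.29. In Nrf2 over LacZ 4 rose and 8 fell (0 and 3 past 1.5-fold), with a median of -0.13. The enteric smooth muscle actin *Actg2* fell in both, at -1.92 in Nrf1 (SE 0.0954, adjusted p = 8.47e-11 by limma) and -1.17 in Nrf2 (adjusted p = 3.31e-08 by limma), opposite in sign to *Acta2*. The acidic calponin gene *Cnn3* fell by 1.03 on the log2 scale in Nrf1 (adjusted p = 3.19e-12 by limma) and was at -0.23 in Nrf2 (adjusted p = 1.13e-04 by limma), opposite to *Cnn1*. Caldesmon (*Cald1*), an inhibitor of actin and myosin interaction that many cells express, rose by 0.90 in Nrf1 (SE 0.0306, adjusted p = 1.03e-12 by limma) and was at 0.07 in Nrf2 (adjusted p = 0.0843 by limma). *Ppp1r12b*, a targeting subunit of myosin phosphatase, rose by 0.67 in Nrf1 (adjusted p = 2.51e-08 by limma) and 0.56 in Nrf2 (adjusted p = 1.38e-06 by limma).

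Of 25 genes for cytoplasmic actins and actin turnover, 15 rose and 6 fell in Nrf1 over LacZ, with a median of 0.14, and 18 rose and 4 fell in Nrf2 over LacZ, with a median of 0.22. Past 1.5-fold were 2 higher and 2 lower in Nrf1, and 2 higher and 0 lower in Nrf2. *Arpc3*, a subunit of the Arp2/3 complex that starts actin branches, rose by 0.60 in Nrf1 (adjusted p = 7.52e-08 by limma) and 0.15 in Nrf2 (adjusted p = 0.0255 by limma). Another subunit of the same complex, *Arpc1b*, fell in both, at -0.78 (adjusted p = 1.56e-10 by limma) and -0.36 (adjusted p = 1.55e-06 by limma). *Capza1*, whose product caps filament ends, rose by 0.49 and 0.25 (adjusted p = 5.25e-09 and 5.01e-05 by limma). The actin-sequestering thymosin *Tmsb10* fell in both, at -1.19 and -0.37 (adjusted p = 2.35e-12 and 1.14e-05 by limma).

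Of 18 further genes of the SRF and MRTF pathway and its targets, 7 rose and 7 fell in Nrf1 over LacZ and 6 rose and 6 fell in Nrf2 over LacZ, and the median was 0.02 in both. Past 1.5-fold were 1 higher and 2 lower in Nrf1, and 1 higher and 3 lower in Nrf2. *Srf* itself, named here beside its partner list after its values were seen, was at 0.01 in each (adjusted p = 0.843 and 0.863 by limma). The immediate early genes *Egr1* and *Fos*, classical SRF targets, fell in both, *Egr1* to -1.18 in Nrf1 and -0.97 in Nrf2 (adjusted p = 1.58e-06 and 3.03e-05 by limma). *Fos* was at -0.88 and -0.34 (adjusted p = 1.17e-05 and 0.0163 by limma). *Fosl1*, a FOS-related factor, rose by 0.73 and 1.26 (adjusted p = 8.43e-07 and 2.36e-09 by limma). *Rock1*, a kinase that promotes actin filament assembly downstream of RhoA, rose by 0.50 and 0.21 (adjusted p = 6.69e-09 and 2.81e-04 by limma).

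**Figure D5:**
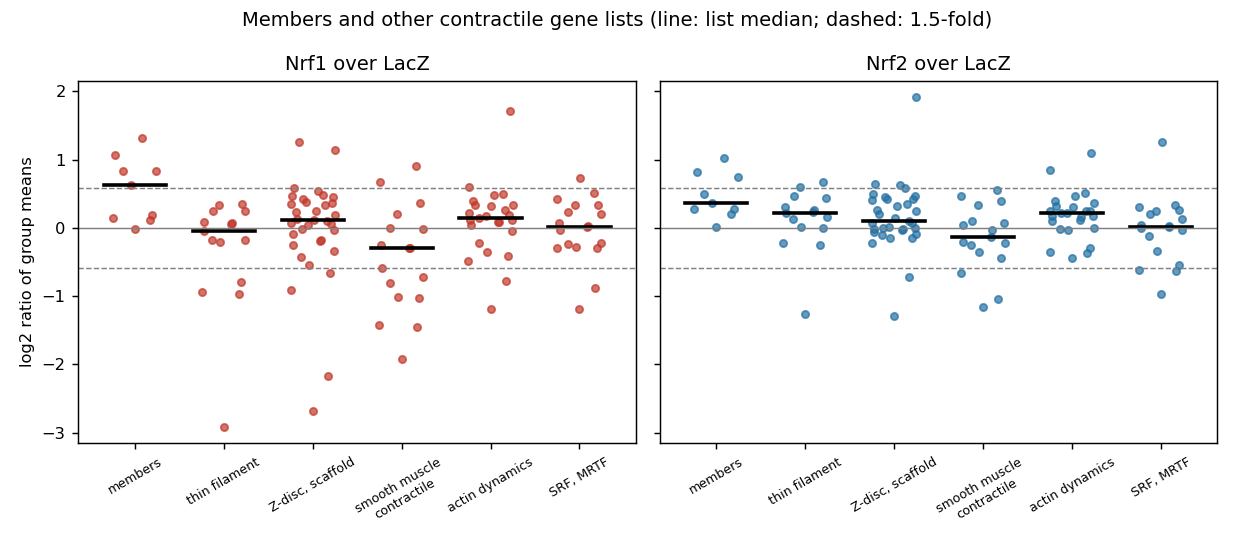
Log2 ratio of the group means for each gene (points) of the 9 followed genes and 5 other lists of contractile and actin genes, for Nrf1 over LacZ (left) and Nrf2 over LacZ (right); bars are list medians and dashed lines mark 1.5-fold. The medians of the other lists lie between -0.29 and 0.22, and that of the 9 genes at 0.63 and 0.36.

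Set between the factors directly, the further thin-filament genes were mostly higher in Nrf2 cells, where 9 of 15 rose and 2 fell over Nrf1, with a median of 0.42. The cardiac troponin I gene *Tnni3* differed by 1.19 (SE 0.0268, adjusted p = 1.46e-16 by limma) in the direction opposite to *Actc1*. The other smooth muscle contractile genes had 10 of 17 that rose and 4 that fell, with a median of 0.37. *Cald1* was lower in Nrf2 cells by a ratio of -0.84 (adjusted p = 1.27e-16 by limma), as *Tagln* and *Acta2* were. Of 34 Z-disc and scaffold genes 16 rose and 10 fell, with a median of 0.09. Of 25 genes for cytoplasmic actins and actin turnover 14 rose and 7 fell, also with a median of 0.09. In the SRF and MRTF list 5 of 18 rose and 8 fell, with a median of -0.04. Over all genes 28.8% rose and 29.8% fell by limma in this comparison. Of those with means of 1000 or more, as many listed genes have, 32.9% rose and 43.6% fell. The median log2 ratio of genes with a mean of at least 100 was -0.03.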

How the data were processed

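RNA from 9 NRVM samples (3 libraries each of LacZ, Nrf1 and Nrf2, grouped by the titles in the labels) had been sequenced by the authors as 75-bp single-end reads from stranded mRNA libraries. Per the methods and the submitters' processing notes, reads were checked with FastQC 0.11.4, aligned to the rat genome Rnor 6.0 with HISAT2 2.0.4, freed of duplicates with SAMtools 0.1.18 and counted per gene with featureCounts 1.6.0, and the tool named for the authors' tests is edgeR 3.20.5. Whether the counting used strand is not given in the sources used here. Removing duplicates from single-end reads can lower the counts of highly expressed genes, a group to which all genes followed here belong. *Actc1* nevertheless held 60251 solved reads in Nrf1 library 1. Whether the deposited means come from counts without duplicates, and what removal did to these genes, was not tested. The signal in the 3 deposited tables, 1 per pair of groups, is the authors' mean of size-factor-scaled counts over the libraries of a group, scaled within that pair. The authors' own fold changes, p-values and adjusted p-values also stand in these tables and were not used. The number of columns of single samples left unused was 0.

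The main measure was the log2 ratio of the authors' means, called above 1.5-fold where either mean was at least 10. Each group stands in 2 tables with different size factors, and all whole, non-negative read numbers of its 3 libraries that meet both means within the deposited rounding were searched for (Python 3.11.15, numpy 2.4.6, pandas 2.3.3). In LacZ 1 gene had more than 1 solution. These solved reads, divided by the size factors, were tested with limma 3.58.1 (R 4.3.3) with an intensity trend on log2(value + 0.5) over all genes with a mean of at least 10, with Benjamini-Hochberg adjustment. Ratios within a library and shares were compared by exact two-sided permutation tests over the libraries, 20 splits each, for which p-values were not adjusted since none can pass. The solving and the fit were tested on simulated data. SDs cover the libraries and include counting error, and the solved totals of 7874370 to 11905027 reads per library give each gene followed here at least 2128 reads in every library.

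The genes followed, the gene lists, the markers and the tests were chosen with earlier results of these data known. In other lists the genes named were the 2 highest and the 2 lowest in Nrf1 over LacZ with a mean of at least 100. Alternatives were a fold limit of 2 and a looser one of 0.32 on the log2 scale, other scalings, other minimum means, a pseudocount of 1, and leaving out each library. Calls by adjusted p alone and the fit on shares of reads were added after seeing the data. No reference of the rat build was used, so no sequences or coordinates are given.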

Additional observations from a re-analysis of the deposited data

How the results depend on the processing

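No log2 ratio of the 9 genes that was called turned its direction under any alternative run. At a fold limit of 2 the genes called higher were 2 in Nrf1 over LacZ (from 5), 1 in Nrf2 over LacZ (from 3) and 0 in Nrf2 over Nrf1 (from 1). At a looser limit of 0.32 on the log2 scale they were 5 in Nrf2 over LacZ, and 4 were called lower in Nrf2 over Nrf1 (from 0). Shares of all genes are not given for these limits or for fits without 1 library. Those counts therefore do not show how the 9 genes compare with all genes. By adjusted p of limma alone, chosen after seeing the data, 8, 8 and 3 were called higher and 6 lower in Nrf2 over Nrf1. Fits by limma that each left out 1 library gave 4 to 5 higher in Nrf1 over LacZ and 3 in Nrf2 over LacZ. In Nrf2 over Nrf1 they gave 1 higher and 0 to 1 lower, *Des* passing at -0.59 without Nrf2 library 2. Where 2 libraries of a group remained, limma pooled the spread over both groups. *Actc1* in Nrf1 over LacZ was under the 1.5-fold limit when ratios were re-centred on the median gene (0.57), as a share of the summed means (0.57) and in the fit on shares of reads (0.57). In that fit *Cnn1* in Nrf1 over LacZ was at 0.05 (adjusted p = 0.335 by limma). Over the other lists, genes past 1.5-fold lower in Nrf2 over Nrf1 went from 7 to 3 at a mean of at least 100. The causes were not tested. All other counts stayed within 1.5 times their value. No paired analysis was possible because the solved libraries carry no replicate number. With 3 libraries against 3, an exact permutation test cannot go below p = 0.1.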
